A study of Zea mays with 46 samples.

Results

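The genes described here are 178 neighbours, by identifier number, in the chromosome 1 stretch that holds the maize locus p1. They are the rows of the count table with identifiers Zm00001d028700 to Zm00001d028999 whose mean reached 1 CPM in at least 1 of the 9 RNA groups, so they were chosen by their measured level. CPM is the count of a gene scaled to the same library total for every library. That is 178 of 237 rows in the stretch, and 26138 of 39005 rows of the whole table reached the same level. The numbers of this annotation follow the order of genes along a chromosome, but the sources used here give no position, name or function for any of these identifiers. They pair none of them with p1 itself, so every gene is called by its identifier and p1 RNA could not be followed as a check of the labels.

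The stretch was compared between P1-rr and P1-ww plants, both labelled as inbred A619, in unfertilized silk at 0 days after pollination and in pericarp of kernels at 14 days. It was also compared between leaf protoplasts electroporated with 35S:P1 and with an empty vector, made from dark-grown seedlings of 12 days of the hybrid B73 x A632, with 12 seedlings pooled per replicate. Silk of B73, of A632 and of their F1 hybrid gave 3 more groups. The protocol text names another hybrid than the sample fields do, and the sample fields were followed. Each of the 9 groups had 3 libraries. The labels call the silk and pericarp samples biological replicates, from field plants of 1 summer. No source used here says how the P1-rr and P1-ww stocks were derived, or how much DNA around p1 differs between them. In the plants, a difference in DNA linked to p1 and an action of P1 on its neighbours therefore cannot be told apart. Both protoplast groups have the same genome, and differ in the vector they received. Whether silk, pericarp and leaf RNA carried their defining markers was not checked, since no identifier has a name here.

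P1 is a MYB-type regulator of transcription that acts in floral tissues of maize on genes of flavonoid synthesis. In pericarp and cob it drives red phlobaphene pigments, and in silk it drives C-glycosyl flavones such as maysin, which deter the corn earworm. Alleles of p1 are named for pigment, with P1-rr giving red pericarp and red cob and P1-ww giving colourless pericarp and white cob. The locus has a closely related linked copy, p2, and some alleles are arrays of repeated copies. Genes that lie near p1 are inherited with it, whether or not P1 acts on them.

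The 27 libraries held 18910941 to 54466743 counted reads, and the 178 genes took 0.5693% to 1.152% of them. No 2 libraries of a group agreed within sampling noise. The lowest chi-square per degree of freedom was 7.4. The highest group mean of a gene ran from 1.08 to 1802.62 CPM, with a median of 34.43 CPM. Of the 178 genes, 109 reached 1 CPM in all 9 groups, and 6 entered the set through 1 group alone. Just inside the level were Zm00001d028701 at 1.08 CPM and Zm00001d028754 at 1.21 CPM, and just outside were Zm00001d028845 at 0.980 CPM and Zm00001d028984 at 0.945 CPM. The gene with the highest level, Zm00001d028759, reached it in empty-vector protoplasts. The highest group was a protoplast group for 29 genes with 35S:P1 and for 30 genes with the empty vector.

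In silk, P1-rr and P1-ww differed at many of these genes, in both directions. A gene was called when edgeR's quasi-likelihood test gave an adjusted p under 0.05, adjusted over all genes of the table that were tested. Of the 166 tested, P1-rr silk was higher in 33 and lower in 35, together 41% of those tested. Of all genes tested in silk 12.4% were called, 5.87% as higher and 6.57% as lower, and among those at 1 CPM or more 12.9% were called. The median size of the log2 change was 0.47 over the 166 genes and 0.25 over all genes tested. The change was at least 2-fold for 19 of the higher and 23 of the lower genes, with no share over all genes given here. Among called genes the median size of the log2 change was 1.28 in the stretch and 0.81 over the whole table. The other 12 genes were too low in silk for the test, with a highest mean of 0.383 CPM. The stretch was picked with these contrasts known, so its shares describe it and test nothing.

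In pericarp 156 were tested, and P1-rr was higher in 24 and lower in 26, together 32.1%. Of all genes tested there 13% were called, 5.7% as higher and 7.25% as lower. The median size of the log2 change was 0.59 over the 156 genes and 0.36 over all genes tested. At least 2-fold changes were seen in 15 higher and 16 lower genes, again with no share over all genes given here. Among called genes the median size of the log2 change was 1.27 in the stretch and 1.06 over the whole table. The pericarp count depended on single libraries. Leaving out P1-rr replicate 2 gave 21, and leaving out P1-rr replicate 1 gave 58. Of the P1-ww libraries, omitting replicate 1 gave 25, replicate 2 gave 28 and replicate 3 gave 24. In the other 22 genes, too low for the pericarp test, the highest mean was 1.49 CPM, for Zm00001d028744.

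**Figure D1:**
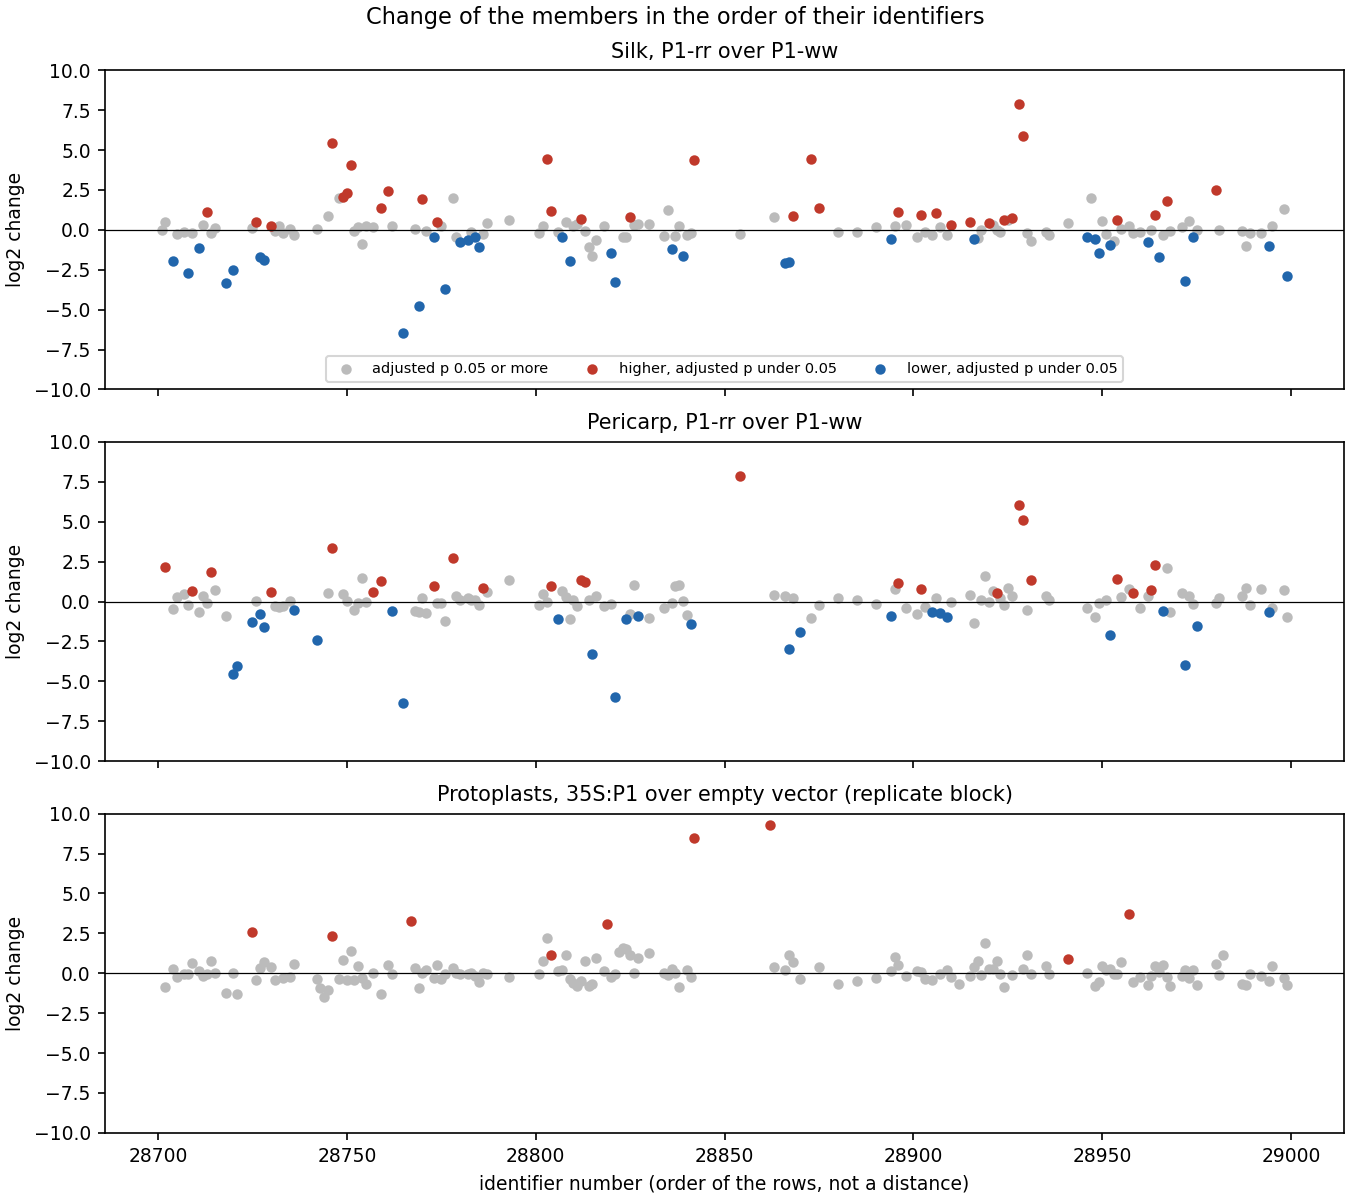
Log2 change of each tested gene (vertical axis) against its identifier number (horizontal axis), for P1-rr over P1-ww in silk and in pericarp and for 35S:P1 over empty vector in protoplasts with the replicate number as a block. Red and blue points passed an adjusted p under 0.05; in silk and pericarp they lie on both sides of 0 along the whole stretch, and in protoplasts the 9 that passed lie above 0.

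Of the 153 genes tested in both tissues, 21 were called in the same direction in silk and pericarp, 11 higher and 10 lower in P1-rr. That is 13.7% of the genes tested in both, against 2.08% of all genes tested in both. A further 42 were called in silk alone, 26 in pericarp alone, and 63 in neither, with no share over all genes given here. One, Zm00001d028773, was called in opposite directions. Across the 153 genes the log2 changes of the 2 tissues had a Pearson r of 0.61 and a Spearman rho of 0.45, where all 21278 genes tested in both gave 0.37 and 0.18. Both tissues came from the same pair of stocks, and genes are not independent replicates. The count of 21 was 13 without P1-rr pericarp replicate 2 and also 13 without P1-ww pericarp replicate 2.

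Some of the 21 stood out by near absence of reads in 1 stock, a pattern counted with a mean of at least 1 CPM in 1 stock and at most 0.1 CPM in the other. It was met by 5 genes in silk and 6 in pericarp, and by 3 genes in both tissues, where 0.142%, 0.26% and 0.0574% of all genes at the level met it. The 3 are Zm00001d028928 and Zm00001d028929, adjacent in number and read in P1-rr, and Zm00001d028765, read in P1-ww.

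Zm00001d028928 had 4.68, 4.64 and 4.45 CPM in P1-rr silk, against 0.0404, 0 and 0 CPM in P1-ww silk. In pericarp it had 2.06, 3.10 and 2.82 CPM in P1-rr, against 0.0974, 0 and 0 CPM in P1-ww. No P1-rr library came near a P1-ww library in either tissue. The P1-ww libraries held 1 read in silk and 2 in pericarp, so the CPM ratio was 307 (counting interval 54.7 to 12160) in silk, and 82.6 (22.5 to 687) in pericarp. The fitted log2 change was 7.86 ± 0.57 (SE, edgeR, adjusted p = 1.11e-06) in silk and 6.04 ± 0.71 (SE, edgeR, adjusted p = 0.00374) in pericarp. Silk of F1, B73 and A632 all carried it, at 2.21 to 3.61 CPM on average. It was near 0 in both protoplast groups apart from 1.10 CPM in 1 library with 35S:P1.

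Zm00001d028929 followed its neighbour in the plants. It had 2.98, 2.63 and 3.34 CPM in P1-rr silk and 0.0807, 0 and 0.0488 CPM in P1-ww silk. Pericarp gave 1.37, 1.71 and 1.03 CPM in P1-rr and 0, 0.0485 and 0.0508 CPM in P1-ww. The groups did not overlap, with a log2 change of 5.87 ± 0.56 (SE, edgeR, adjusted p = 1.62e-05) in silk and 5.09 ± 0.63 (SE, edgeR, adjusted p = 0.00456) in pericarp. In protoplasts it had 0.727, 1.19 and 0.422 CPM with 35S:P1 and 0.382, 0.905 and 0.423 CPM with the empty vector, groups that overlapped. The silk change exceeded the protoplast change by 5.61 on the log2 scale (SE 1.03, edgeR interaction test, adjusted p = 0.0297). The pericarp change exceeded it by 4.85, which did not pass (edgeR interaction test, adjusted p = 0.0749). The silk call was lost in 8 of 12 fits that left out 1 library, with an adjusted p of up to 0.11. The 12 fits gave differences of 5.06 to 6.39, and the replicate block gave 5.65 (edgeR, adjusted p = 0.00341). That block also covered the silk libraries, which the numbers do not pair. The same holds for the plant libraries in all such tests below.

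Zm00001d028765 had the reverse pattern. P1-rr silk had 0.0354, 0 and 0.0384 CPM and P1-ww silk 3.23, 2.87 and 1.51 CPM. P1-rr pericarp had 0, 0.0794 and 0.0428 CPM and P1-ww pericarp 3.26, 3.68 and 4.82 CPM. B73 and A632 silk libraries all stood at 0, so among the silk groups P1-ww was the exception for this gene. The P1-rr to P1-ww ratio was 0.00983 (counting interval 0.00118 to 0.0360) in silk and 0.0114 (0.00233 to 0.0336) in pericarp. Both passed (edgeR adjusted p = 0.000491 in silk and 0.000958 in pericarp).

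**Figure D2:**
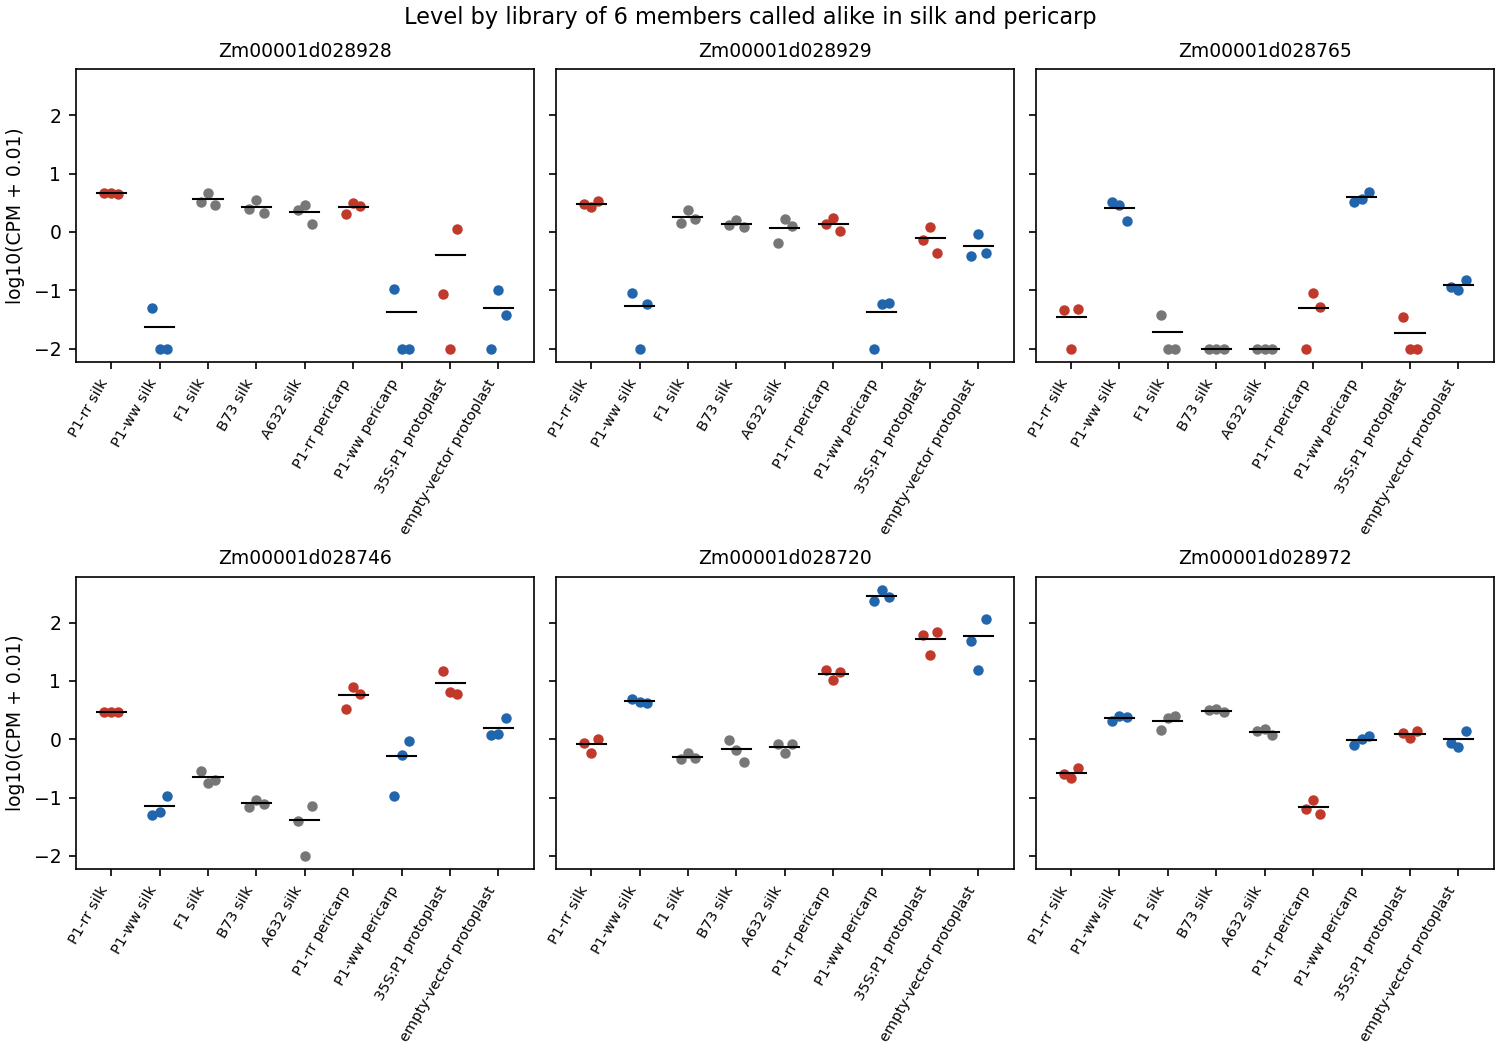
Level of 6 genes in every library, as log10(CPM + 0.01) on the vertical axis, with the 9 groups on the horizontal axis. Points are libraries and bars the group means; red marks P1-rr and 35S:P1, blue P1-ww and empty vector, grey the other silk groups. Zm00001d028928, Zm00001d028929 and Zm00001d028746 are higher in P1-rr in both tissues, and Zm00001d028765, Zm00001d028720 and Zm00001d028972 are lower.

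Zm00001d028746 was higher in P1-rr in both tissues and also in protoplasts with 35S:P1. Silk had 2.98, 2.96 and 2.92 CPM in P1-rr and 0.0404, 0.0464 and 0.0976 CPM in P1-ww (log2 change 5.46 ± 0.49 SE, edgeR adjusted p = 8.91e-06). Pericarp had 3.23, 7.79 and 5.99 CPM in P1-rr and 0.0974, 0.533 and 0.914 CPM in P1-ww (log2 change 3.38 ± 0.61 SE, edgeR adjusted p = 0.0156). Without P1-rr pericarp replicate 2 or P1-ww pericarp replicate 2 the pericarp adjusted p was 0.0558 or 0.0507. Protoplasts had 15.1, 6.51 and 5.95 CPM with 35S:P1 and 1.17, 1.21 and 2.28 CPM with the empty vector. The protoplast groups did not overlap. Their log2 change was 2.42 ± 0.58 (SE, edgeR, adjusted p = 0.231) without a block and 2.32 ± 0.44 (SE, edgeR, adjusted p = 0.0155) with the replicate number as a block. Silk of F1, B73 and A632 stayed at or below 0.275 CPM in each library, so among silks the P1-rr level stood apart.

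Among the 10 genes lower in P1-rr in both tissues, Zm00001d028720 was well read in pericarp. P1-rr pericarp had 15.3, 10.4 and 14.2 CPM and P1-ww pericarp 230.4, 365 and 274 CPM. In silk the levels were 0.850, 0.575 and 0.998 CPM in P1-rr and 4.93, 4.31 and 4.20 CPM in P1-ww. The groups were apart in both tissues, and the log2 change was -4.51 ± 0.24 (SE, edgeR, adjusted p = 0.000117) in pericarp and -2.52 ± 0.32 (SE, edgeR, adjusted p = 0.000223) in silk. Its neighbour in number, Zm00001d028721, had 0.635, 0.675 and 0.941 CPM in P1-rr pericarp and 10.0, 8.72 and 17.5 CPM in P1-ww pericarp, and was at or below 0.142 CPM in each silk library of both stocks. In protoplasts Zm00001d028720 had 61.9, 28.3 and 69.2 CPM with 35S:P1 and 47.6, 15.4 and 117 CPM with the empty vector. These protoplast groups overlapped, and the pericarp change minus the protoplast change was -4.20 on the log2 scale (SE 0.75, edgeR interaction test, adjusted p = 0.0272). Leaving out 1 library ended that call in 8 of 12 fits, with an adjusted p of up to 0.117. With the replicate block the difference was -4.48 (edgeR, adjusted p = 0.00164). The silk change of Zm00001d028720 minus its protoplast change was -2.19, which did not pass (edgeR interaction test, adjusted p = 0.303).

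Zm00001d028972 and Zm00001d028867 were likewise lower in P1-rr in both tissues. Zm00001d028972 had 0.248, 0.205 and 0.307 CPM in P1-rr silk and 2.02, 2.50 and 2.44 CPM in P1-ww silk. In pericarp it had 0.0529, 0.0794 and 0.0428 CPM in P1-rr and 0.779, 1.02 and 1.12 CPM in P1-ww. With 35S:P1 it had 1.28, 1.03 and 1.40 CPM and with the empty vector 0.841, 0.724 and 1.38 CPM, so the large gap was seen in the plants and the protoplast groups overlapped. Its change minus the protoplast change was -3.37 in silk and -4.17 in pericarp on the log2 scale (edgeR interaction tests, adjusted p = 0.0137 and 0.0176). With 1 library left out, the silk difference lost its call in 5 of 12 fits and the pericarp difference in 7, while the replicate block gave -3.38 and -4.20 (edgeR, adjusted p = 0.00707 and 0.0147).

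Zm00001d028867 had 39.3, 32.8 and 60.1 CPM in P1-rr pericarp and 310.4, 294 and 370.4 CPM in P1-ww pericarp. Silk had 9.78, 7.68 and 10.4 CPM in P1-rr and 32.2, 36.7 and 38.5 CPM in P1-ww. Neither tissue showed overlap. The log2 change was -2.96 ± 0.24 in pericarp and -2.01 ± 0.14 in silk (SE, edgeR, adjusted p = 0.000828 and 9.19e-07). Protoplasts with 35S:P1 had 56.8, 26.0 and 81.6 CPM against 10.9, 13.4 and 52.8 CPM with the empty vector. That change did not pass, with an adjusted p of 0.0567 in edgeR's test with the replicate block, and the pericarp change differed from it by -3.93 (edgeR interaction test, adjusted p = 0.0297). The silk change differed from it by -2.95, which did not pass (edgeR interaction test, adjusted p = 0.084). The pericarp call was lost in 9 of 12 fits with 1 library left out, and with the replicate block the difference was -4.12 (edgeR, adjusted p = 0.00098).

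Among the higher genes, Zm00001d028759 was the most abundant. It had 268, 255 and 215 CPM in P1-rr silk and 93.1, 82.6 and 101 CPM in P1-ww silk. Pericarp had 1011, 1097 and 1069 CPM in P1-rr and 499.6, 428 and 338 CPM in P1-ww. The stocks were apart in both tissues, with log2 changes of 1.35 ± 0.17 in silk and 1.26 ± 0.18 in pericarp (SE, edgeR, adjusted p = 0.000205 and 0.00739). Protoplasts gave 407, 1001 and 1017 CPM with 35S:P1 and 1660.0, 993 and 2754 CPM with the empty vector, groups that overlapped. The remaining 7 higher genes had log2 changes of 0.26 to 1.17 in silk and 0.61 to 2.29 in pericarp. The largest of these was in pericarp, for Zm00001d028964, and Zm00001d028804 changed by 1.17 in silk and 0.95 in pericarp.

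For 9 of the 21 genes both stocks lay outside the range of the F1, B73 and A632 silk means. For 8 the P1-rr silk mean alone lay outside it, and for 4 the P1-ww silk mean alone. Neither stock was thus the one that stood apart throughout. Zm00001d028902 had 12.2 CPM in P1-rr silk and 6.07 CPM in P1-ww silk, where F1, B73 and A632 lay between 5.33 and 7.37 CPM. Zm00001d028896 had 86.8 CPM in P1-rr silk and 38.5 CPM in P1-ww silk, where the others lay between 65.9 and 112 CPM. Neighbouring identifiers were called together in 23 of 165 adjacent pairs in silk, against 524 of 25249 over all genes. Of the 23 pairs 16 were in 1 direction (69.6%), and over all genes the same-direction share of such pairs was 67.4%. In pericarp 17 of 155 pairs were called together, against 471 of 22208 over all genes, with same-direction shares of 64.7% and 63.5%. Such pairs become more frequent with the share of genes called, which was 41% in silk and 32.1% in pericarp. Over all genes it was 12.4% and 13%, so these pair counts are no measure of clustering.

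**Figure D3:**
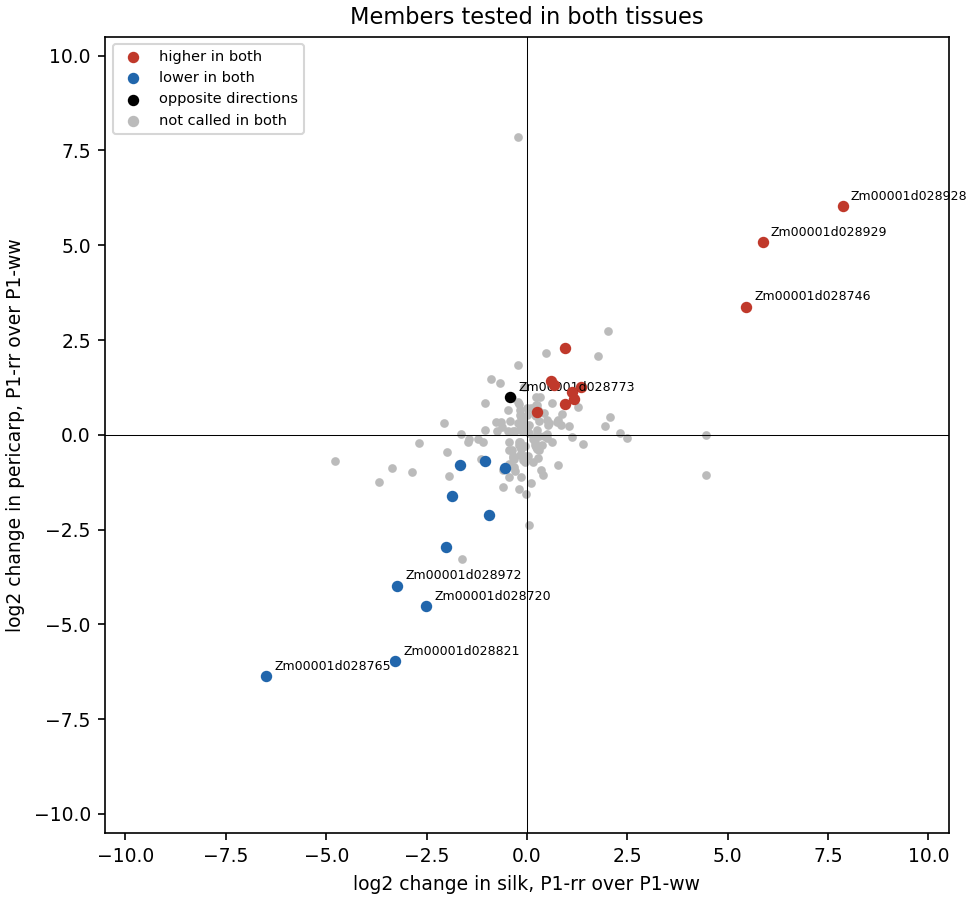
Log2 change of P1-rr over P1-ww in silk (horizontal axis) and pericarp (vertical axis) for the 153 genes tested in both tissues. The 11 genes called higher in both are red, the 10 called lower in both blue, and Zm00001d028773, called in opposite directions, black.

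Several large changes were seen in 1 tissue. For 48 of 166 genes the P1-rr effect differed between pericarp and silk in edgeR's interaction test. The effect was more positive in pericarp for 25 and in silk for 23, or 28.9% of the genes, against 11.9% of all genes tested (6.14% and 5.77% by direction). With all 27 libraries sharing 1 estimate of spread, 7 genes passed. No share over all genes is given here for that fit, so the 7 cannot be set against 11.9%. Zm00001d028750 and Zm00001d028751, adjacent in number, were higher in P1-rr silk. Zm00001d028750 had 1372, 1884 and 895 CPM in P1-rr silk and 254, 219 and 318 CPM in P1-ww silk, but 254, 237 and 327 CPM in P1-rr pericarp and 240.0, 297 and 222 CPM in P1-ww pericarp. The silk groups were apart and the pericarp groups overlapped, and the log2 change in pericarp minus that in silk was -2.29 (SE 0.33, edgeR interaction test, adjusted p = 0.00169). Zm00001d028751 had 18.6, 22.7 and 15.8 CPM in P1-rr silk and 1.29, 1.16 and 0.830 CPM in P1-ww silk, and was below 0.5 CPM in each pericarp library. No other silk group reached its P1-rr level, the highest of their libraries being 4.56 CPM, in B73.

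Zm00001d028769 was lower in P1-rr silk, with 0.142, 0.657 and 0.538 CPM against 10.1, 12.3 and 12.3 CPM in P1-ww silk. In pericarp it had 1.27, 1.23 and 1.67 CPM in P1-rr and 1.51, 2.76 and 2.13 CPM in P1-ww. The pericarp groups overlapped, and the difference between tissues was 4.08 ± 0.52 on the log2 scale (SE, edgeR, adjusted p = 0.000823). It was 4.04 with an adjusted p of 0.137 when all 27 libraries shared 1 spread in edgeR. Zm00001d028776 had 0.390, 0.493 and 0.384 CPM in P1-rr silk and 4.93, 5.61 and 5.12 CPM in P1-ww silk. Its P1-rr level was close to B73 silk, at 0.440, 0.192 and 0.400 CPM, and its P1-ww level lay below A632 silk, at 8.07, 11.3 and 10.0 CPM. In pericarp its means were 0.278 CPM in P1-rr and 0.639 CPM in P1-ww, in groups that did not overlap. That log2 change was -1.25 ± 0.41 and did not pass (SE, edgeR, adjusted p = 0.0833). The silk change of Zm00001d028776 minus its protoplast change was -3.58 on the log2 scale (SE 0.49, edgeR interaction test, adjusted p = 0.00714). With 1 library left out, 0 of 12 fits lost that call. Its pericarp change minus its protoplast change was -1.18, which did not pass (edgeR interaction test, adjusted p = 0.527).

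In pericarp, Zm00001d028815 and Zm00001d028742 were lower in P1-rr. Zm00001d028815 had 13.1, 10.3 and 8.09 CPM in P1-rr pericarp and 88.9, 83.6 and 118 CPM in P1-ww pericarp (log2 change -3.27 ± 0.25 SE, edgeR adjusted p = 0.00056). Zm00001d028742 had 22.3, 34.6 and 37.0 CPM in P1-rr pericarp and 180.0, 119 and 165 CPM in P1-ww pericarp (log2 change -2.38 ± 0.23 SE, edgeR adjusted p = 0.00178). Neither pair of groups overlapped. In silk Zm00001d028815 had means of 0.245 CPM in P1-rr and 0.724 CPM in P1-ww, groups that did not overlap (log2 change -1.62 ± 0.66 SE, edgeR adjusted p = 0.132). In silk Zm00001d028742 had 20.9, 17.3 and 19.5 CPM in P1-rr and 18.3, 18.9 and 15.8 CPM in P1-ww, groups that overlapped. Zm00001d028778 was higher in P1-rr pericarp, with 7.24, 9.49 and 11.1 CPM against 2.29, 0.727 and 0.863 CPM in P1-ww (log2 change 2.75 ± 0.45 SE, edgeR adjusted p = 0.0106). Its silk means were 0.458 CPM in P1-rr and 0.105 CPM in P1-ww, in groups that did not overlap (log2 change 2.02 ± 0.67 SE, edgeR adjusted p = 0.0651). The tissue difference of Zm00001d028778 was 0.74 and did not pass (edgeR interaction test, adjusted p = 0.65).

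Zm00001d028773, the gene called in opposite directions, had 75.6, 77.3 and 84.4 CPM in P1-rr silk and 95.9, 99.8 and 110.1 CPM in P1-ww silk. Pericarp had 48.7, 54.0 and 53.0 CPM in P1-rr and 22.4, 25.6 and 25.9 CPM in P1-ww. Each tissue kept the stocks apart, with log2 changes of -0.43 ± 0.09 in silk and 1.00 ± 0.12 in pericarp (SE, edgeR, adjusted p = 0.00816 and 0.00381). The difference was 1.43 ± 0.14 on the log2 scale (SE, edgeR interaction test, adjusted p = 0.000166). Of all genes tested in both tissues, 0.54% were called in opposite directions.

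In protoplasts, 35S:P1 against empty vector gave 0 of 167 genes in edgeR's test without a block, where 0.139% of all genes passed. At an unadjusted p under 0.05 there were 11, where 6.43% of all genes passed. DESeq2 called 7, with no share over all genes given here. Protoplast libraries of the same replicate number deviated together, and with the number as a block edgeR called 9 genes, all higher with 35S:P1. Those 9 are 5.39% of the genes tested, against 6.28% of all genes, or 5.19% in the higher direction alone. The share in this stretch was thus near that of the whole table. The 9 include Zm00001d028842 and Zm00001d028862, where reads of the vector itself may have been counted, which was not tested. The 11 genes not tested had means of at most 2.31 CPM. Tested directly, the silk change differed from the protoplast change in 5 genes (2.89%) and the pericarp change in 4 (2.27%), where 0.731% and 0.721% of all genes did, without a block. With the replicate block, set for the plant libraries too, the counts were 27 and 22, and leaving out 1 library gave 1 to 9 and 1 to 7. Shares over all genes in those fits are not given here, so these counts cannot be set against 0.731% and 0.721%.

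Zm00001d028725 had 75.4, 38.6 and 58.6 CPM with 35S:P1 and 8.03, 9.80 and 6.82 CPM with the empty vector. All 3 libraries with 35S:P1 were above all 3 with the empty vector, and the log2 change was 2.61 ± 0.27 (SE, edgeR with block, adjusted p = 0.000681). Without the block the adjusted p was 0.0699 in edgeR. In pericarp the gene went the other way, with 34.4, 56.0 and 69.0 CPM in P1-rr and 106, 141 and 119 CPM in P1-ww (log2 change -1.28 ± 0.22 SE, edgeR adjusted p = 0.0142). Silk had 13.2, 11.5 and 12.8 CPM in P1-rr and 10.9, 11.0 and 11.4 CPM in P1-ww. Its change differed from the protoplast change by -2.44 in silk and -3.85 in pericarp on the log2 scale (edgeR interaction tests without block, adjusted p = 0.0132 and 0.00287). The silk call was lost in 4 of 12 fits with 1 library left out and the pericarp call in 0. With the replicate block the differences were -2.46 and -3.90 (edgeR, adjusted p = 0.00236 and 0.000888).

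Zm00001d028957 had 2.28, 1.03 and 1.14 CPM with 35S:P1 and 0.0765, 0.121 and 0.0846 CPM with the empty vector. Zm00001d028819 had 25.2, 7.35 and 4.59 CPM with 35S:P1 and 2.22, 1.12 and 0.366 CPM with the empty vector. Both were apart between groups, with log2 changes of 3.72 ± 0.65 and 3.10 ± 0.33 in the block fit (SE, edgeR, adjusted p = 0.0109 and 0.000807). In edgeR without the block they did not pass, at adjusted p = 0.116 and 0.391. In silk Zm00001d028957 had 4.96, 5.59 and 4.95 CPM in P1-rr and 3.35, 3.80 and 5.56 CPM in P1-ww, which overlapped. Its silk change minus its protoplast change was -3.49 (edgeR interaction test, adjusted p = 0.0217, lost in 6 of 12 fits with 1 library left out). Its pericarp change minus its protoplast change was -2.95, which did not pass (edgeR interaction test, adjusted p = 0.256). Zm00001d028819 was at or under 0.137 CPM in each silk and pericarp library. Of the 21 genes called alike in the tissues, Zm00001d028746 and Zm00001d028804 were among the 9. Zm00001d028804 had 42, 17.6 and 102 CPM with 35S:P1 and 13.8, 10.8 and 32.4 CPM with the empty vector. These 2 groups overlapped, while each replicate number was higher with 35S:P1 (log2 change 1.17 ± 0.23 SE, edgeR with block, adjusted p = 0.0197).

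Between Zm00001d028842 and Zm00001d028862, 6 rows had reads in each library with 35S:P1 and at most 3 reads in any library with the empty vector. The other 4 rows of that run did not: Zm00001d028855 and Zm00001d028856 had 0 reads in each library with 35S:P1, Zm00001d028861 had 2, 0 and 0, and Zm00001d028859 had 2, 0 and 12 with 35S:P1 and 3, 0 and 0 with the empty vector. The 6 rows were singled out after their values were seen, and 3 of them are under the level that defines the set. Near-identical copies may share reads with them, and how such reads were counted is not given in the sources used here. Zm00001d028842 had 697, 160 and 242 reads with 35S:P1 and 0, 2 and 0 with the empty vector, a CPM ratio of 492 (counting interval 136 to 4066). Its log2 change was 8.50 ± 0.73 (SE, edgeR with block, adjusted p = 0.000272), and without the block the adjusted p was 0.0556. Zm00001d028862 had 391, 15 and 2866 reads with 35S:P1 and 0, 0 and 3 with the empty vector. Its replicates spread widely, and its adjusted p was 6.07e-05 in edgeR with the block and 0.153 without it.

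Zm00001d028845 had 60, 27 and 22 reads with 35S:P1, Zm00001d028849 had 53, 8 and 6, Zm00001d028850 had 60, 10 and 19, and Zm00001d028854 had 65, 7 and 13. All 4 had 0 reads in each empty-vector library. In the whole table, 12 rows had at least 6 reads in each library with 35S:P1 and 0 in each empty-vector library, and these 4 were among them. The minimum of 6 was set at the lowest count seen among the 4.

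In the plants these rows did not move together. Zm00001d028842 had 4.11, 4.11 and 2.84 CPM in P1-rr silk and 0.242, 0 and 0.244 CPM in P1-ww silk (log2 change 4.39 ± 0.49 SE, edgeR adjusted p = 8.26e-05), and at most 0.159 CPM in each pericarp library. F1 silk was above its parents for this gene, at 12.2, 11.3 and 10.4 CPM, with 1.55, 0.851 and 1.17 CPM in B73 and 1.34, 1.39 and 2.25 CPM in A632. Zm00001d028854 had 21, 42 and 32 reads in P1-rr pericarp and 0 in each P1-ww pericarp library. The level was at least 28.6-fold higher in P1-rr pericarp, taking 3 reads over the P1-ww group as the limit that a count of 0 allows (edgeR adjusted p = 0.00525). Silk of both stocks held 1 read in 1 library each. Other silk groups did read Zm00001d028854, with 53, 37 and 42 reads in F1, 28, 3 and 2 in B73 and 4, 11 and 3 in A632. Zm00001d028862 was at 0.390, 0.452 and 0.307 CPM in P1-rr silk and 0 in each P1-ww silk library, at least 8.50-fold higher by the same limit, and was too low for a test in silk. Zm00001d028845 and Zm00001d028849 had no read in any library of the 2 stocks, and Zm00001d028850 had 1, in P1-rr pericarp. The intervals and limits cover counting error alone.

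**Figure D4:**
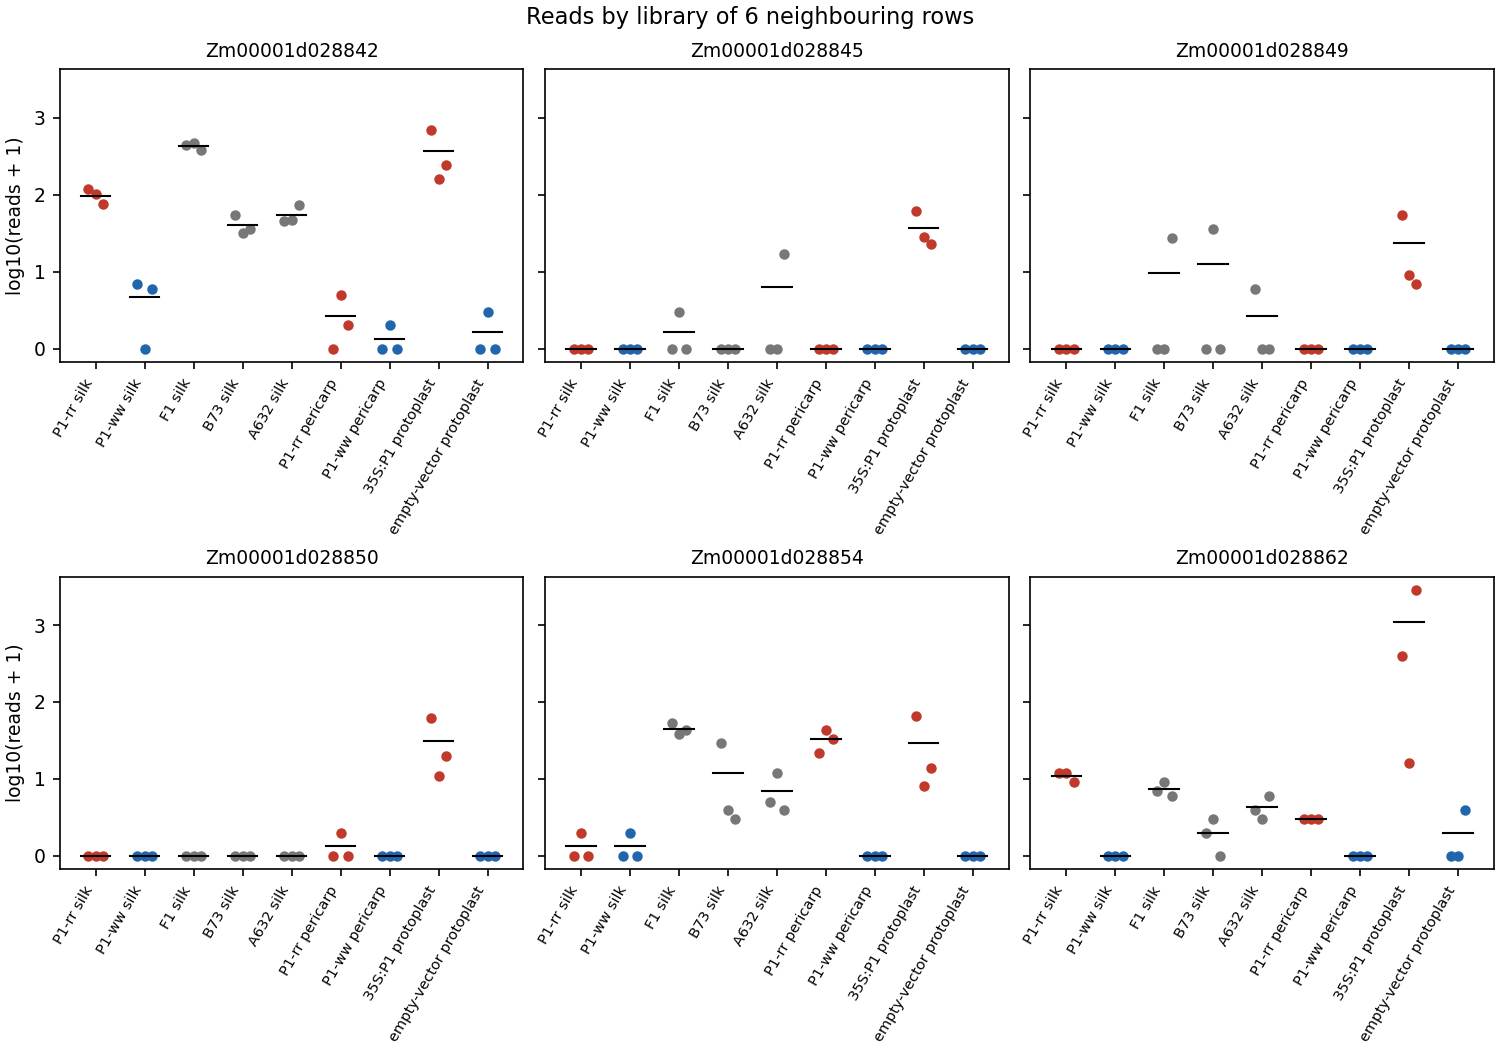
Reads per library, as log10(reads + 1) on the vertical axis, for 6 rows between Zm00001d028842 and Zm00001d028862, with the 9 groups on the horizontal axis. Points are libraries and bars the group means; red marks P1-rr and 35S:P1, blue P1-ww and empty vector, grey the other silk groups. All 6 rows have reads in each 35S:P1 library, and 4 of them have none in any empty-vector library.

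Along the identifiers, the share of tested rows called in silk was 33.3% to 46.9% in the 6 blocks of 50 identifiers of the stretch. The block of Zm00001d028850 to Zm00001d028899 had 17 rows tested in silk, and its share is thin. In pericarp the share ran from 25.9% to 42.9%, and the share called alike from 7.41% to 20%. Neither tissue had a single block that held the calls. The flanking rows were also above the table's share. In silk 27.2% were called in the 300 identifiers before the stretch, 39.4% in the stretch with all its rows, and 32.1% in the 300 after it. In pericarp the values were 30.3%, 31.8% and 28.4%, and called alike 8.55%, 13.6% and 14.7%. The difference between the stretch and its flanks was not tested. In protoplasts with the block, 5.39% of rows were called before the stretch, 6.29% in the stretch with all its rows and 7.45% after it.

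**Figure D5:**
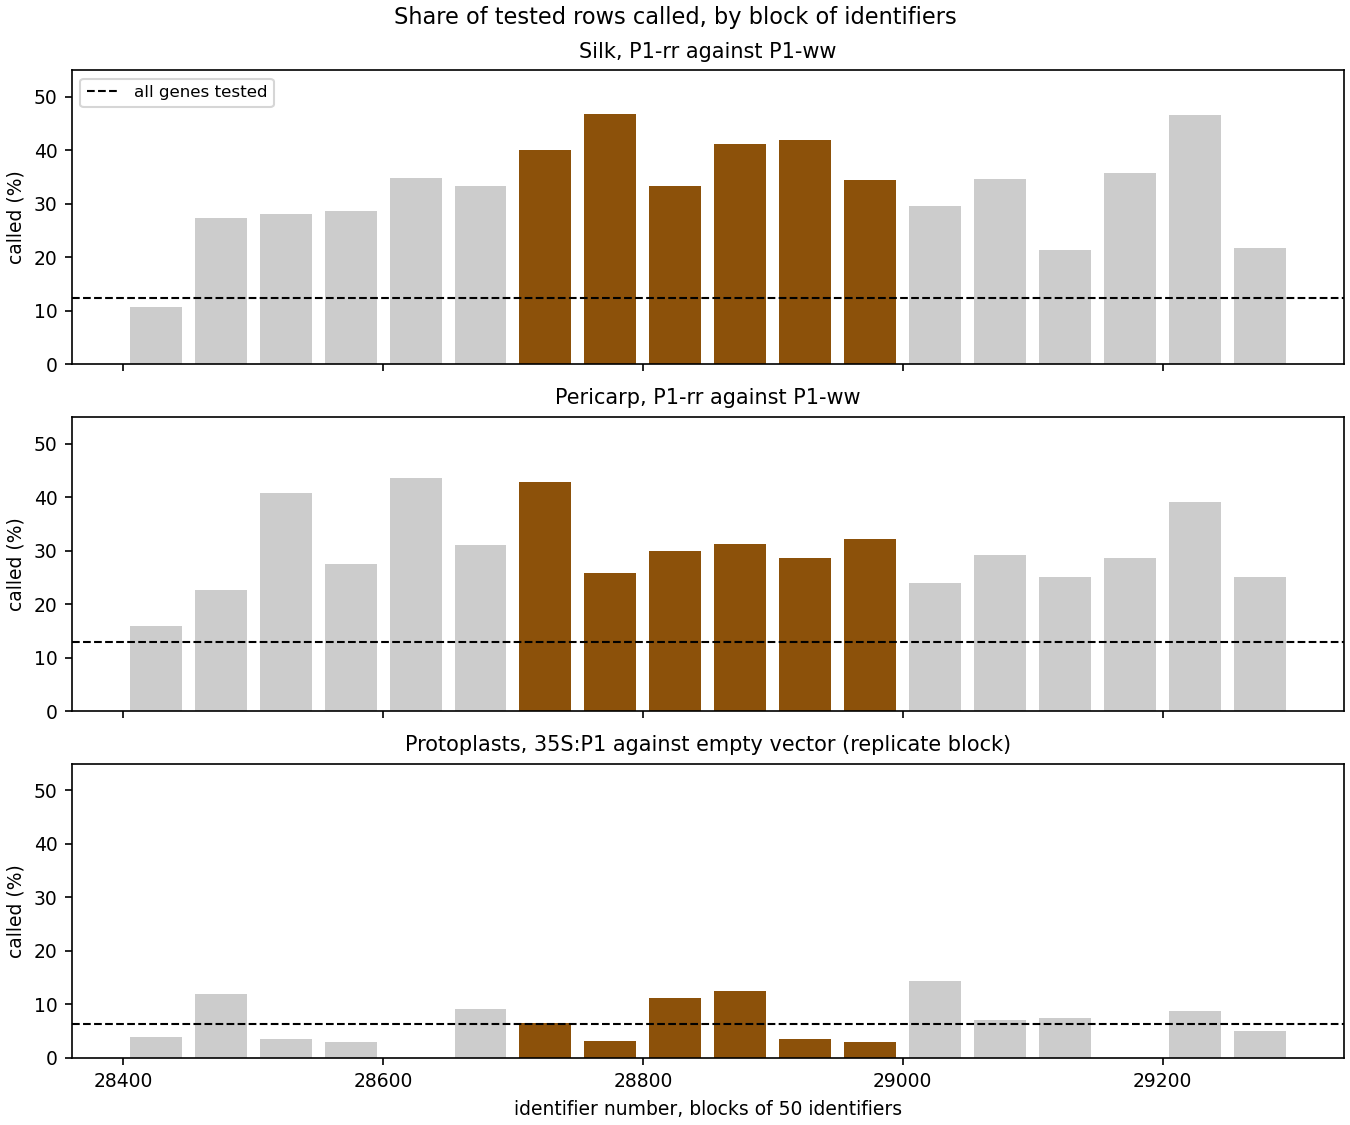
Share of tested rows called (vertical axis, percent) in blocks of 50 identifiers (horizontal axis), for silk, pericarp and protoplasts with the replicate block. Brown bars are the stretch of the 178 genes, grey bars its flanks, and the dashed line is the share over all genes tested, 12.4%, 13% and 6.28%; in silk and pericarp each brown bar is above the line.

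The contrast of B73 and A632 silk shows how often 2 other inbreds differ at these genes. Of 166 tested, 47 were higher and 49 lower in B73, together 57.8%, against 53% of all genes tested. Of the 166, 41 were called both there and between P1-rr and P1-ww silk, or 24.7%, where 7.53% of all genes tested were. That share rises with the share called in each contrast. Between the stocks 41% of these genes were called, against 12.4% of all genes, so it is no separate result. Of the 41, 20 had the same direction (B73 as P1-rr) and 21 the opposite one, and of the 1901 such genes among all tested, 1055 had the same and 846 the opposite direction. Some genes split the stocks from all other material. Zm00001d028732 had means of 5.29 CPM in P1-rr silk, 4.33 CPM in P1-ww silk, 7.84 CPM in P1-rr pericarp and 9.35 CPM in P1-ww pericarp, and at most 0.0354 CPM elsewhere. Zm00001d028839 had 1.88 CPM in P1-rr silk and 5.62 CPM in P1-ww silk and 0 in the 5 groups of other material. Zm00001d028748 was the reverse, with 15.1 CPM in F1 silk, 10.8 CPM in B73 silk, 14.0 CPM in A632 silk, 8.49 CPM with 35S:P1 and 7.46 CPM with the empty vector, against at most 0.0137 CPM in any group of the stocks.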

How the data were processed

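RNA of 9 groups with 3 libraries each was read as single-end reads of 50 nt. The authors deposited 1 table of raw counts per gene for 39005 genes, unnormalized. The submitters' processing notes list bcl2fastq 2.20.0, FastQC, Trimmomatic, Bowtie2 2.3.4.1, HISAT2 2.0.4 and B73 RefGen_v4. Which program counted reads, with what strand setting and what rule for reads with several matches, is not stated in any source used here. The library kit named in the labels' protocols does not mark strand. How reads of other lines match the B73 genome was not tested. None of the identifiers matched the RefSeq gene table, so no position or sequence is given, and the peak lists were not used here.

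Counts were fitted with edgeR 4.0.16 in R 4.3.3 (TMM scaling, filterByExpr, 1 mean per group, quasi-likelihood test, two-sided) on the whole table, with Benjamini-Hochberg adjustment over all genes tested. Silk contrasts used all 15 silk libraries, the others only the groups compared. SEs are the log2 change over the square root of F. DESeq2 1.42.0 was an alternative, with other scalings, filters, level rules, pooled fits and each library left out. Adding the replicate number as a block was decided from the data: same-numbered 35S:P1 and empty-vector libraries deviated together, with correlations of 0.65, 0.74 and 0.84 across genes, so block values stand beside protoplast results. In tests of a plant change against the protoplast change, the block also covered the silk or pericarp libraries. Their numbers do not pair them. The scripts were tested on simulated data. The genes named are, per contrast, those with the largest changes among the called ones in each direction, plus genes called in opposite directions, read in 1 stock alone, or nearest the level rule. Genes named beyond that rule were chosen after their values were seen. The members and lists were chosen with earlier results of these data known. A fold against a group at 0 was set at a limit of 3 reads over the group.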

Additional observations from a re-analysis of the deposited data

Results flagged for a closer look

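The P1-rr effect differed between pericarp and silk, by edgeR's interaction test with adjusted p from 0.000166 to 0.0489, in 24 of the 45 named genes. It was more positive in pericarp for 11 and more positive in silk for 13. The named genes include, by choice, the 6 with the largest called differences in each direction, and others with the largest change in 1 tissue. The count of 24 therefore follows in part from how they were picked. Of the 166 genes of the stretch that were tested, 28.9% were called, against 11.9% of all genes tested. All values here are log2 differences, pericarp minus silk. The more positive ones in pericarp were 1.53 for Zm00001d028704, 2.47 for Zm00001d028708, 2.05 for Zm00001d028714, 2.47 for Zm00001d028718, 4.08 for Zm00001d028769, 1.43 for Zm00001d028773, 2.42 for Zm00001d028776, 2.38 for Zm00001d028866, 2.04 for Zm00001d028931, 1.35 for Zm00001d028964 and 1.88 for Zm00001d028999. The more positive ones in silk were -1.99 for Zm00001d028720, -4.34 for Zm00001d028721, -2.45 for Zm00001d028742, -1.60 for Zm00001d028749, -2.29 for Zm00001d028750, -4.39 for Zm00001d028751 and -3.34 for Zm00001d028761. The others were -1.73 for Zm00001d028770, -4.45 for Zm00001d028803, -1.66 for Zm00001d028815, -0.95 for Zm00001d028867, -1.16 for Zm00001d028952 and -1.53 for Zm00001d028975. Some of these rest on a tissue with few reads, given here for P1-rr and P1-ww. Zm00001d028721 had 9 and 6 in silk and was too low for the silk test. Zm00001d028751 had 21 and 23 in pericarp and Zm00001d028761 had 8 and 13, both too low for the pericarp test. Zm00001d028803 had 43 and 37 in pericarp. The difference of Zm00001d028803 lost its call with the replicate block (-4.12, edgeR adjusted p = 0.0526), in 3 of the fits that left out 1 library (edgeR adjusted p = 0.0538 to 0.055) and with all 27 libraries (edgeR adjusted p = 0.117). That of Zm00001d028714 lost its call in 3 fits that left out 1 library (edgeR adjusted p = 0.0513 to 0.057). With all 27 libraries the differences of Zm00001d028708, Zm00001d028714, Zm00001d028718, Zm00001d028742, Zm00001d028769 and Zm00001d028866 also lost their calls (edgeR adjusted p = 0.0809 to 0.329). These alternatives were run for the 6 named genes with the largest differences in each direction.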

How the results depend on the processing

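Counts of genes called moved with several settings. Shares over all genes under these other settings are given here only for the protoplast contrast with the block. Requiring a 2-fold change gave 42 in silk, 31 in pericarp, 11 called alike and 40 between B73 and A632. In pericarp the replicate block gave 28 and the fit of all 27 libraries 32. In protoplasts, against 0 without a block, no filter on low counts gave 2, DESeq2 7, the replicate block 9 and all 27 libraries 17. The tissue difference gave 7 with all 27 libraries. Silk minus protoplast, 5 in all, gave 17 with DESeq2, 27 with the replicate block and 3 at a level of 5 CPM. Pericarp minus protoplast, 4 in all, gave 15 with DESeq2 and 22 with the replicate block. Leaving out 1 library gave 53 to 61 in silk, 21 to 58 in pericarp, 0 to 1 in protoplasts, 37 to 51 for the tissue difference, 1 to 9 for silk minus protoplast and 1 to 7 for pericarp minus protoplast. It gave 80 to 93 for B73 and A632, 13 to 24 called alike, and 3 read in 1 stock in both tissues. Outside protoplasts the numbers do not pair libraries: the correlations were 0.07, 0.08 and 0.08 in silk and 0.14, -0.22 and -0.26 in pericarp. Of 67 gene results, 43 stayed on their side of the threshold in all settings run, 19 lost their call in at least 1 and 0 changed sign. The 5 protoplast results among the 67 did not pass without the block and passed with it. Calls lost when single libraries were left out were those of Zm00001d028980 and Zm00001d028999 in silk, and of Zm00001d028746, Zm00001d028702, Zm00001d028714, Zm00001d028954, Zm00001d028931, Zm00001d028812 and Zm00001d028975 in pericarp, and of Zm00001d028714 and Zm00001d028803 for the tissue difference. The cause was not tested.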
